A study of Homo sapiens with 96 samples.

Results

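The 10 mitotic kinesins described here are KIF2C, KIF4A, KIF11, KIF14, KIF15, KIF18A, KIF20A, KIF20B, KIF23 and KIFC1. They were chosen by gene symbol, with earlier results of these data known. Each has a row in all 8 deposited tables, which list 19438 genes. The cells are U2-OS, an osteosarcoma line of human origin, with a luciferase gene under the Per2 promoter. Knockdown cells were plated at 0.56 M (M, 1e+06) per 15 cm dish. They were transfected with 120 pmol of a mix of 5 siRNAs against the clock gene Bmal1 (ARNTL in the tables). Wild-type cells were plated at 2.25 M per dish without siRNA, and the labels give 80% confluence for both treatments. Cells of both treatments were synchronised with 0.1 µM dexamethasone, a glucocorticoid that resets the cellular clock, and were given 100 µg/mL cycloheximide, which holds ribosomes on mRNA, at harvest. Harvests began 24.5 h after synchronisation and followed every 2 h for 12 circadian times, CT 0 to CT 22. Each time was sampled in 2 replicates by total RNA sequencing and by ribosome profiling, which sequences the mRNA pieces (footprints) protected by translating ribosomes, so that each treatment and assay has 24 of the 96 libraries.

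The labels name no control siRNA, so effects of siRNA against Bmal1, of transfection and of the lower seeding density cannot be told apart, and nothing says that replicates were separate cultures, so p-values measure a spread between samples that may be technical. In these bulk samples, fewer dividing cells and less kinesin RNA per dividing cell cannot be told apart either. Total RNA libraries held 13.6 to 20.1 M reads in 46 of 48 cases, and 2.66 and 2.56 M in the replicate 2 knockdown libraries of CT 14 and CT 18. Footprint libraries held 2.50 to 5.82 M. ARNTL itself stood at 3.36 to 6.49 counts per M reads (CPM) in the 24 knockdown total RNA libraries, all under the 14.3 to 47.9 CPM of the 24 wild-type libraries, with a log2 difference of -2.60 ± 0.05 (SE, limma adjusted p = 3.67e-29). Of 9 bone and mesenchymal genes, 6 were tested in total RNA, 4 were higher and 1 lower in knockdown cells: SPP1, ALPL, VIM and SPARC averaged 34.5, 11.4, 2403 and 1142 CPM in knockdown cells and 12.3, 4.09, 1982 and 1035 CPM in wild-type cells, and RUNX2 10.5 CPM in knockdown cells and 15.5 CPM in wild-type cells. COL1A1 (177 CPM in knockdown cells, 180 CPM in wild-type cells) did not pass the test, and COL1A2, BGLAP and IBSP were at or near 0. Of 4 epithelial genes, CDH1 was higher (3.88 CPM in knockdown cells, 1.64 CPM in wild-type cells), EPCAM lower (2.01 CPM in knockdown cells, 3.93 CPM in wild-type cells), and KRT14 and CLDN4 did not pass the test. Of 4 blood genes, CD68 was higher (12.8 CPM in knockdown cells, 2.09 CPM in wild-type cells), PTPRC did not pass the test, and CD3E and HBB were at or near 0. The part of these markers in the results was not tested.

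Kinesins are motor proteins that use ATP to move along microtubules or to take them apart. The mitotic members act when the microtubules of a dividing cell are rebuilt into a spindle: they push the poles apart, move and align chromosomes, and then organise the midzone where the daughter cells separate. Their genes are transcribed mostly in G2 and mitosis, and in cycling cells much of this timing runs through promoter elements, among them the cell-cycle genes homology region (CHR, TTTGAA or TTCGAA), which DREAM and MuvB complexes bind, and the CCAAT box, which NF-Y binds. In a culture of mixed phases their bulk level therefore depends on how many cells are near division.

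The choice of members by name did not use their promoters, and the sequences share features. Of the RefSeq promoter windows (GRCh38.p14, 250 bases before to 50 after the start site), 10 of 10 matched by symbol. TTTGAA, searched on both strands, was found in 8 of 10 members, in all but KIF2C and KIF20A, against 15.2% of 35116 promoters. CCAAT, also on both strands, was found in 8 of 10, in all but KIF2C and KIF15, against 34.6% of promoters, and both motifs together in 7 of 10, against 5.90%. The other CHR form, TTCGAA, was in 0 of 10 (1.45% of promoters), the E-box CACGTG in 0 of 10 (7.26%) and the E2F-type GGCGGGAA in 0 of 10 (3.16%). Among the 15200 promoters of genes tested in total RNA, TTTGAA was in 10.7%, CCAAT in 34.2% and both in 4.19%. TTCGAA was in 1.56% of those 15200, CACGTG in 8.96% and GGCGGGAA in 4.59%. These are matches of letters, not measured binding. The stretches from 80 bases before to 20 bases after the start site are shown for 8 members because they place the motifs side by side, in gene orientation, 5′ to 3′, with TTTGAA (or TTCAAA, the same on the other strand) and CCAAT (or ATTGG) in capitals.
KIF11 (chr10:92593050-92593149, plus strand): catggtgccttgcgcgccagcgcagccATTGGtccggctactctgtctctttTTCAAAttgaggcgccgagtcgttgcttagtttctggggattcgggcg
KIF15 (chr3:44761714-44761813, plus strand): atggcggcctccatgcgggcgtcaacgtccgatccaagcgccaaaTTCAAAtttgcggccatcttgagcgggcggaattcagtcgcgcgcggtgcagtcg
KIFC1 (chr6:33391743-33391842, plus strand): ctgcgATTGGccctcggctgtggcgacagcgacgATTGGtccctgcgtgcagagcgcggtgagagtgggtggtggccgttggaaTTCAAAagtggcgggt
KIF18A (chr11:28108137-28108236, minus strand): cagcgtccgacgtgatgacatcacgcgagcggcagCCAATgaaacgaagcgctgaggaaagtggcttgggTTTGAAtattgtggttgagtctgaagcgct
KIF4A (chrX:70290024-70290123, plus strand): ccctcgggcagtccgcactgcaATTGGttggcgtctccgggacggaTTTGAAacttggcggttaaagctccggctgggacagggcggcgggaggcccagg
KIF20A (chr5:138179032-138179131, plus strand): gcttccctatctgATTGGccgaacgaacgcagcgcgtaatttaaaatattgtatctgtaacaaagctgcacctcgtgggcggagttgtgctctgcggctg
KIF23 (chr15:69414269-69414368, plus strand): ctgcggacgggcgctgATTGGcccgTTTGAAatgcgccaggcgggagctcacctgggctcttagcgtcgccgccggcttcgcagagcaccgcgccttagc
KIF14 (chr1:200620732-200620831, minus strand): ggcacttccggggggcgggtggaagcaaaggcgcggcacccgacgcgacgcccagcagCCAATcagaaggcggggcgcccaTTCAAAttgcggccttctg
In 6 of these 8 stretches, those of KIF11, KIFC1, KIF18A, KIF4A, KIF23 and KIF14, both motifs appear, and in each of the 6 a CCAAT or ATTGG lies upstream of the TTTGAA or TTCAAA. KIF15 shows TTCAAA without CCAAT, and KIF20A shows ATTGG without TTTGAA. In KIF20B the matches fall outside this stretch, with ATTGG at 131 and 98 bases before the start site and TTTGAA beginning at 25 and 31 bases after it.

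All 10 mitotic kinesins were lower in knockdown than in wild-type cells, in total RNA and in footprints. In total RNA the mean over all times stood at 49.4% (KIF15) to 74.0% (KIF2C) of wild-type, and in footprints at 47.2% (KIF15) to 73.5% (KIF2C). The test was limma on log2(CPM + 0.25), averaging the knockdown minus wild-type difference over the 12 times. In total RNA it called 10 of 10 members lower, where 39.3% of the 14033 genes tested were called lower, 41.2% higher and 80.5% in either direction. The members' median log2 difference was -0.78 in total RNA, against 0.01 over all genes tested. In footprints 10 of 10 were lower, where 37.8% of the 11995 genes tested were called lower, 36.6% higher and 74.3% in either direction, with a median of -0.80 for the members against -0.01 for all genes.

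The motors that build and hold the bipolar spindle had the lowest levels relative to wild-type in total RNA. KIF11 (Eg5), the tetrameric motor that slides antiparallel microtubules to push spindle poles apart, had a lowest, median and highest total RNA level of 77.6, 127 and 169 CPM in knockdown cells, against 206, 247 and 285 CPM in wild-type cells. KIF15, which can maintain the bipolar spindle alongside KIF11, had 28.1, 43.6 and 60.9 CPM in knockdown cells and 74.5, 86.5 and 103 CPM in wild-type cells. KIFC1 (HSET), a minus-end motor that focuses spindle poles and clusters extra centrosomes, had 42.3, 75.5 and 96.2 CPM in knockdown cells and 126, 139 and 172 CPM in wild-type cells. For each of these motors every knockdown library lay under every wild-type library, a separation in this direction seen in 9.39% of all genes tested. The log2 differences were -1.003 ± 0.029 for KIF11, -1.03 ± 0.04 for KIF15 and -0.99 ± 0.03 for KIFC1 (SE, limma adjusted p = 7.49e-25, 1.91e-21 and 9.52e-26).

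Footprints of the same motors gave differences of similar size. KIF11 footprints ran through 109, 233 and 321 CPM (lowest, median, highest) in knockdown cells and 350, 451 and 699 CPM in wild-type cells. KIFC1 footprints ran through 89.1, 162 and 208 CPM in knockdown cells and 253, 281 and 356 CPM in wild-type cells. Neither gene's groups overlapped, as in 5.30% of all genes tested. KIF15 footprints, the fewest of these with 66 to 180 reads per knockdown library, ran through 17.2, 35.5 and 52.3 CPM in knockdown cells and 50.7, 75.1 and 99.7 CPM in wild-type cells, so that 2 of 24 knockdown libraries lay above the lowest wild-type one. The log2 differences were -1.04 ± 0.07 for KIF11, -0.94 ± 0.03 for KIFC1 and -1.10 ± 0.08 for KIF15 (SE, limma adjusted p = 4.74e-14, 6.68e-29 and 1.18e-13).

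The motors that act on chromosomes and kinetochore microtubules spread more widely. KIF2C (MCAK), which depolymerises microtubules to correct faulty kinetochore attachments, was the least reduced of the 10, with 130, 229 and 274 CPM of total RNA in knockdown cells and 229, 287 and 370 CPM in wild-type cells. Its groups overlapped, with 12 of 24 knockdown libraries above the lowest wild-type library, although its mean difference of -0.46 ± 0.03 was called (SE, limma adjusted p = 3.43e-14). KIF18A, which dampens the movements of aligned chromosomes, had 40.8, 64.7 and 79.6 CPM in knockdown cells and 84.9, 102 and 127 CPM in wild-type cells, without overlap. KIF4A, a chromosome-arm motor that later shortens midzone microtubules with PRC1, had 67.3, 110 and 128 CPM in knockdown cells and 137, 166 and 202 CPM in wild-type cells, also without overlap. Their log2 differences were -0.77 ± 0.04 for KIF18A and -0.70 ± 0.04 for KIF4A (SE, limma adjusted p = 1.83e-19 and 6.56e-18). KIF4A has a near-identical retrocopy, KIF4B, to which reads can be assigned either way: KIF4B averaged 6.08 ± 1.38 CPM in knockdown cells and 8.59 ± 1.11 CPM in wild-type cells (SD, 24 libraries each), 5.78% and 5.09% of KIF4A, and how reads matching both copies were counted was not tested, so KIF4A's level is uncertain.

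In footprints the chromosome motors were all called lower and all overlapped. KIF2C had 187, 358 and 447 CPM in knockdown cells and 362, 450 and 596 CPM in wild-type cells, a log2 difference of -0.47 ± 0.03. KIF18A had 31.4, 67.9 and 84.9 CPM in knockdown cells and 80.6, 108 and 179 CPM in wild-type cells, a difference of -0.80 ± 0.07. KIF4A had 59.8, 113 and 150 CPM in knockdown cells and 127, 152 and 201 CPM in wild-type cells, a difference of -0.57 ± 0.04 (SE). Of the 24 knockdown footprint libraries, 11 lay above the lowest wild-type library for KIF2C, 5 for KIF18A and 5 for KIF4A. KIF4B footprints were 11.1% of those of KIF4A in knockdown cells and 11.9% in wild-type cells.

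Among the motors of the midzone and cytokinesis, KIF20A was lowest relative to wild-type. KIF20A (MKLP2), which carries the chromosomal passenger complex to the midzone, had 65.0, 110 and 136 CPM of total RNA in knockdown cells and 156, 191 and 257 CPM in wild-type cells. Its footprints were 93.6, 175 and 229 CPM in knockdown cells and 271, 350 and 494 CPM in wild-type cells. Neither assay overlapped between treatments, and the log2 differences were -0.94 ± 0.04 in total RNA and -1.09 ± 0.05 in footprints (SE, limma adjusted p = 2.16e-18 and 5.59e-18).

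KIF14, which works with citron kinase at the midbody, had 44.5, 67.2 and 90.5 CPM of total RNA in knockdown cells and 87.2, 112 and 145 CPM in wild-type cells. KIF20B, a motor needed for late cytokinesis, had 59.0, 83.8 and 106 CPM in knockdown cells and 107, 132 and 153 CPM in wild-type cells. KIF23 (MKLP1), the motor of centralspindlin, had 131, 215 and 261 CPM in knockdown cells and 255, 283 and 351 CPM in wild-type cells. KIF20B did not overlap between treatments, and KIF14 and KIF23 did so by 1 knockdown library each. The log2 differences in total RNA were -0.79 ± 0.04 for KIF14, -0.71 ± 0.03 for KIF20B and -0.55 ± 0.02 for KIF23 (SE, limma adjusted p = 7.10e-17, 1.45e-20 and 3.62e-20). In footprints they were -0.80 ± 0.08 for KIF14, -0.58 ± 0.07 for KIF20B and -0.64 ± 0.04 for KIF23 (SE). The footprint ranges of KIF14 overlapped by 1 knockdown library, while 10 knockdown libraries of KIF20B and 9 of KIF23 lay above the lowest wild-type one.

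**Figure D1:**
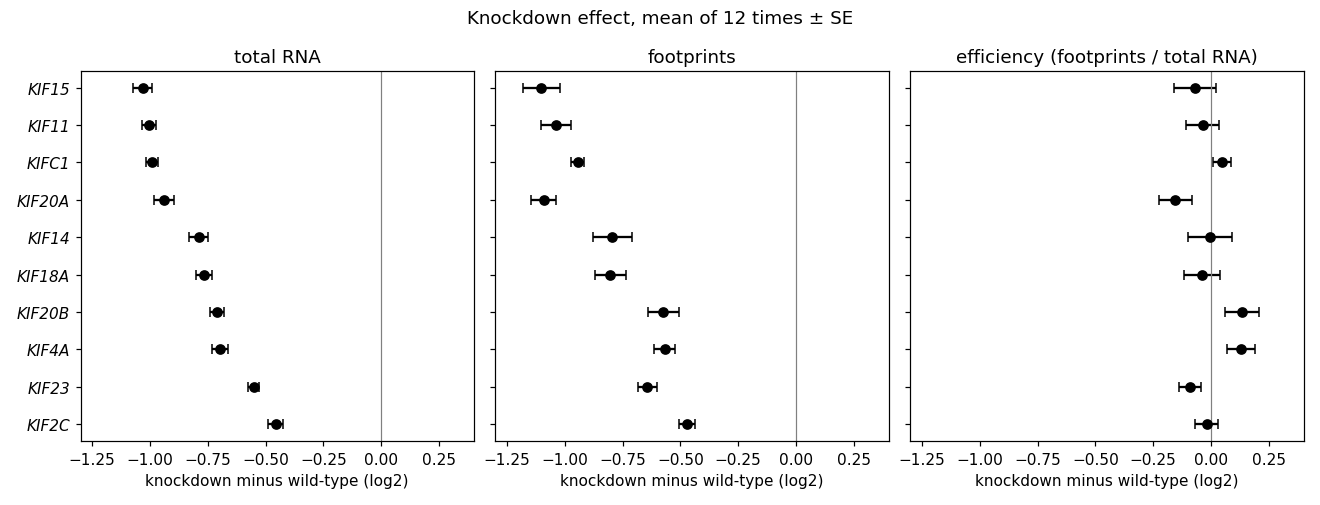
The log2 difference of knockdown minus wild-type cells, averaged over 12 times, is plotted for each mitotic kinesin with bars of 1 SE, in total RNA, in footprints and in efficiency (footprints over total RNA). The estimates of total RNA and footprints all lie under 0, from -1.10 (KIF15 footprints) to -0.46 (KIF2C total RNA), and those of efficiency span -0.15 to 0.13.

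At every time, and not in the average alone, the kinesins were lower in knockdown cells, and the gap was widest at the end of the day. In total RNA both knockdown replicates lay under both wild-type replicates at 12 of 12 times for all 10 genes, a separation that 31.6% to 37.3% of all genes tested showed at a given time. The median knockdown level was 56.9% of wild-type at CT 0, 68.1% at CT 6, 72.4% at CT 12 and 40.6% at CT 22. KIF15 marked the low end with 30.8% at CT 22, and KIF2C the high end with 91.1% at CT 14, the time of a shallow knockdown library. In footprints the same separation held at 12 of 12 times for 8 genes, at 11 for KIF20B and at 10 for KIF4A, where 28.6% to 36.2% of all genes showed it at a given time. The median footprint level was 51.3% of wild-type at CT 0, 76.0% at CT 8, 75.7% at CT 12 and 34.0% at CT 22.

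**Figure D2:**
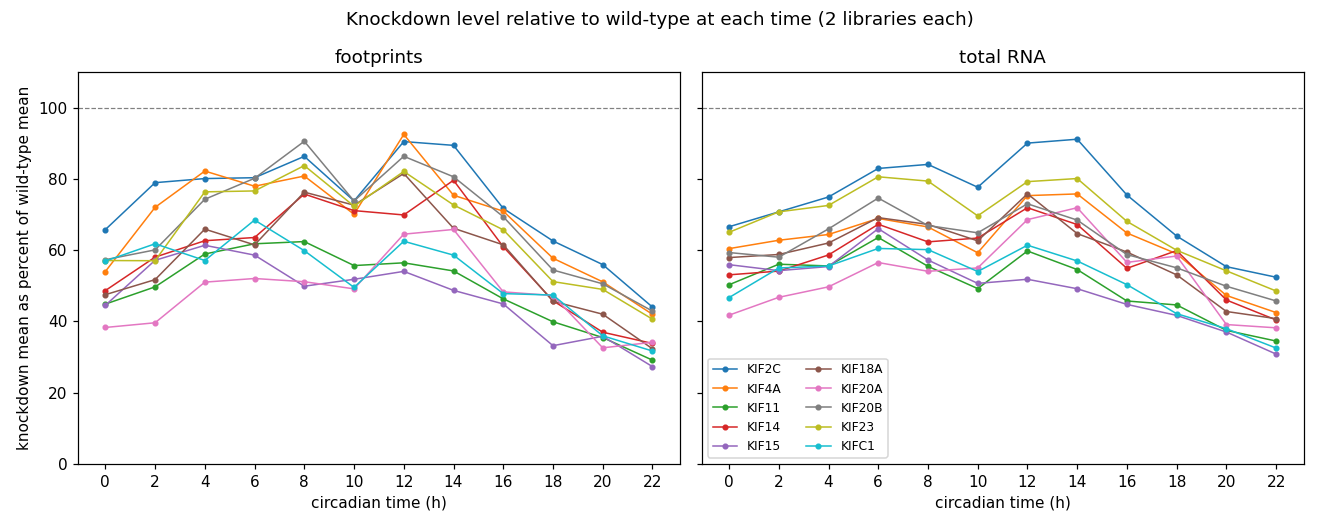
The knockdown level as a percent of the wild-type level is plotted against circadian time in h, with a line per mitotic kinesin through the ratio of the means of 2 libraries each, in footprints and in total RNA. The lines are under 100% at every time, and in total RNA at CT 22 they span 30.8% (KIF15) to 52.4% (KIF2C).

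Single libraries show the same course. KIFC1 total RNA was 96.2 and 89.4 CPM in the knockdown replicates at CT 6, against 149 and 158 CPM in wild-type, and at CT 22 it was 46.6 and 42.3 CPM in knockdown cells against 137 and 136 CPM in wild-type. KIF15 total RNA was 60.9 and 54.7 CPM in knockdown cells at CT 6, against 94.2 and 80.9 CPM in wild-type, and 28.9 and 28.1 CPM at CT 22 against 101 and 83.8 CPM. KIF20A total RNA was 133 and 136 CPM in knockdown cells at CT 12, against 193 and 200 CPM in wild-type, and 72.4 and 65.0 CPM at CT 22 against 198 and 162 CPM. As a ratio of the highest to the lowest library of a series, KIF20A moved 1.85 and 2.10 times in the knockdown replicates and 1.55 and 1.40 times in the wild-type replicates.

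**Figure D3:**
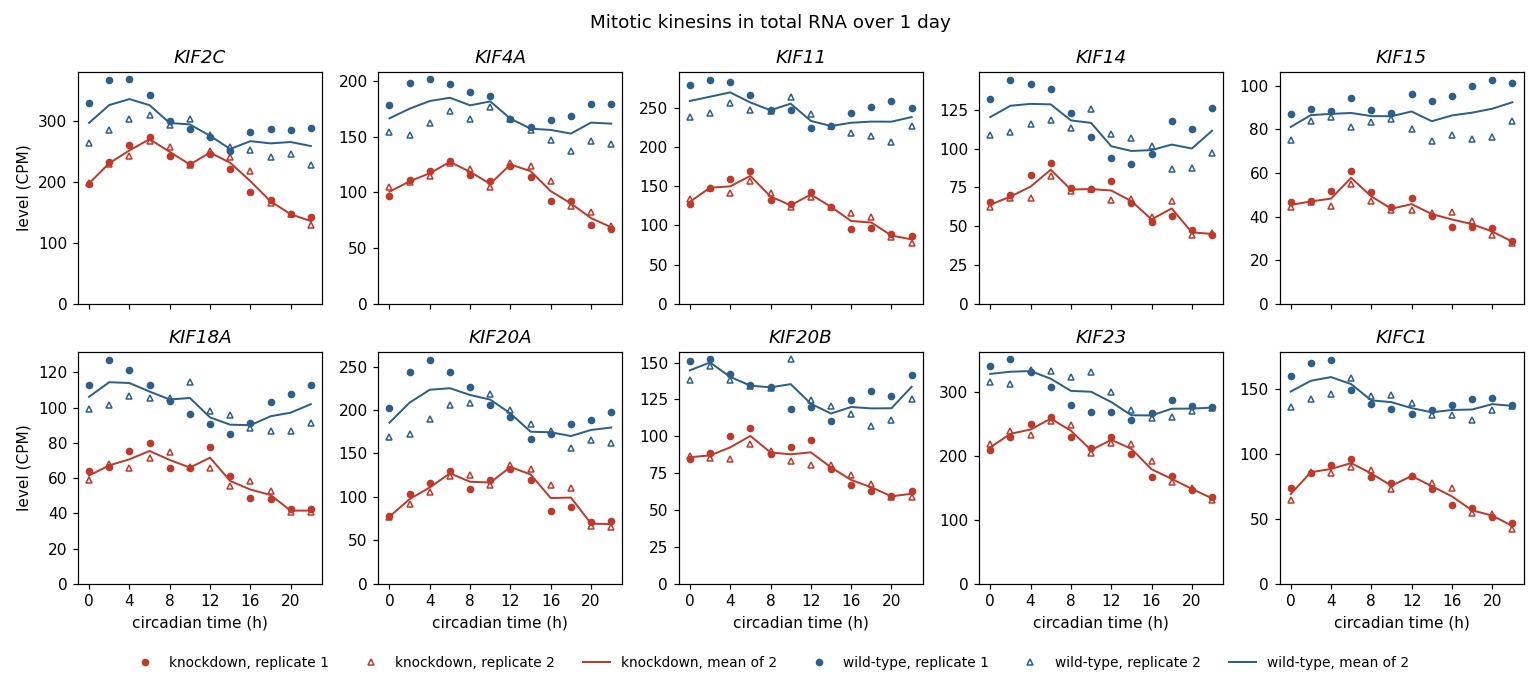
Total RNA in CPM is plotted against circadian time in h for each mitotic kinesin, with a point per library and a line through the means of 2 replicates, for knockdown and for wild-type cells. The knockdown points lie under the wild-type points at all 12 times in all 10 genes.

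Within the knockdown time course, the waves fitted to all 10 kinesins peaked near CT 7 to 10. By single libraries, most members were highest at CT 6 and lowest at CT 22. A cosine of 24 h was fitted within each treatment, its amplitude being the height of its peak over its mean on the log2 scale. In knockdown total RNA it was called for 10 of 10 members, where 31.5% of genes were called, with amplitudes of 0.31 (KIF20B) to 0.41 (KIF20A) and peak-to-trough ratios of 1.53 to 1.77. The limma adjusted p was 2.86e-06 (KIF20B) to 5.22e-05 (KIF4A). Peaks fell at CT 6.87 for KIF11 up to CT 8.56 for KIF4A, and at CT 9.75 for KIF20A. By CPM of single libraries, 9 of 10 members were highest at CT 6 in replicate 1 and 8 of 10 in replicate 2. KIF20A, with its fitted peak at CT 9.75, was highest at CT 12 in each replicate. In each replicate, 8 of 10 were lowest at CT 22. The highest library exceeded the lowest by a median of 1.93 times in replicate 1 and 1.95 times in replicate 2, against 1.38 and 1.31 times in the wild-type series. With 1 day sampled, a repeating rhythm and a course that happens once cannot be told apart, and with a straight drift added, all-gene calls were 575, against 4329 without it, while the members called stayed at 10 of 10.

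Knockdown footprints followed a similar course. Amplitude estimates were above those of total RNA in every member, though close in KIFC1 (0.394 ± 0.062 against 0.386 ± 0.050, SE). The wave was called for 10 of 10, where 16.7% of genes were called, with amplitudes of 0.38 (KIF15) to 0.51 (KIF14), peak-to-trough ratios of 1.70 to 2.02 and peaks from CT 7.08 (KIFC1) to CT 9.05 (KIF20A). The limma adjusted p was 3.31e-05 (KIF4A) to 0.00133 (KIF20B). With a drift added 9 of 10 were called, and with 1 replicate series alone 9 of 10 were called in replicate 1 and 5 of 10 in replicate 2. The difference between the waves of the assays, tested as a 24 h wave of efficiency, was called for 0 of 10. By single libraries, 8 of 10 members were highest at CT 4 in replicate 1, and 5 of 10 at CT 6 in replicate 2. KIF14 footprints were 63.0 and 59.2 CPM at CT 6 and 31.2 and 22.6 CPM at CT 22. KIF18A footprints were 81.8 and 71.7 CPM at CT 6 and 33.8 and 31.4 CPM at CT 22.

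**Figure D4:**
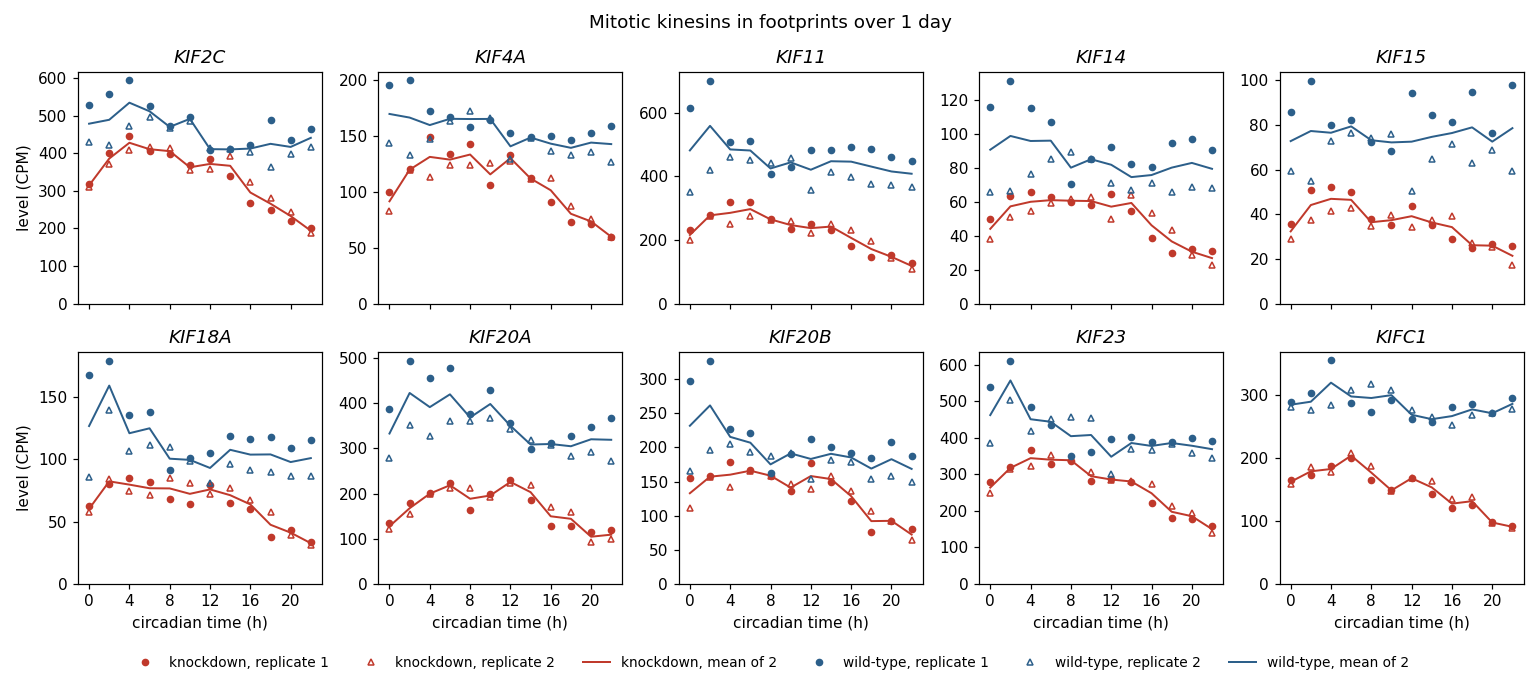
Footprints in CPM are plotted against circadian time in h for each mitotic kinesin, with a point per library and a line through the means of 2 replicates, for knockdown and for wild-type cells. Knockdown KIF11 footprints are at 320 and 274 CPM at CT 6 and at 129 and 109 CPM at CT 22.

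Wild-type waves were shallower and depended on how they were modelled. In wild-type total RNA the cosine was called for 9 of 10 members, where 21.1% of genes were called, with amplitudes of 0.10 (KIF11) to 0.20 (KIF14) and peaks from CT 3.35 (KIF20B) to CT 6.34 (KIF20A). KIF15 was not called (amplitude 0.01, limma adjusted p = 0.975). When any shape over the 12 times was allowed, or a drift was added, 0 of 10 members were called. In wild-type footprints 3 of 10 were called, KIF2C, KIF20A and KIF23, where 6.41% of genes were called, and 6 of 10 with a term for the replicate number.

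The wild-type replicates differed in timing. In total RNA, fitted alone, replicate 1 gave a median peak of CT 2.20 and replicate 2 of CT 6.92, while the knockdown series gave CT 7.14 in replicate 1 and CT 7.88 in replicate 2. The amplitudes of single wild-type series exceeded the pooled ones in most members: KIF14 had 0.30 in replicate 1 and 0.19 in replicate 2 of wild-type total RNA, beside 0.40 and 0.29 in the knockdown replicates, and KIF15 had 0.09 and 0.06 in wild-type, beside 0.37 and 0.27 in the knockdown replicates. In wild-type footprints the median peaks were CT 2.03 in replicate 1 and CT 6.95 in replicate 2. In wild-type total RNA, 5 members were highest at CT 2 and 4 at CT 4 in replicate 1, whereas 6 were highest at CT 10 in replicate 2. What set the wild-type replicates apart was not tested.

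The difference between the waves of knockdown and wild-type cells was called for 10 of 10 members in total RNA, where 10.0% of genes were called, and its size was 0.23 (KIF4A) to 0.34 (KIFC1) on the log2 scale (limma adjusted p = 0.000306 for KIFC1 to 0.0193 for KIF4A). In footprints it was called for 9 of 10, where 3.48% of genes were called, with sizes of 0.33 (KIFC1) to 0.48 (KIF18A), and KIF15 was not called (0.39, limma adjusted p = 0.0626). Most of these calls depended on the first wild-type series: without wild-type replicate 1 the difference was called for 1 of 10 members in total RNA, KIFC1, and for 0 of 10 in footprints. Its size was then 0.15 (KIF14) to 0.30 (KIFC1) in total RNA and 0.27 (KIF2C) to 0.36 (KIF18A) in footprints. In total RNA, KIF14 and KIF4A lost the call without knockdown replicate 1 (limma adjusted p = 0.0764 and 0.106) and KIF4A without knockdown replicate 2 (0.0546). In footprints the difference was also called for 2 of 10 without knockdown replicate 1 and for 4 of 10 without knockdown replicate 2. The cosine compares amplitude and timing together, so the call does not say which of them changed.

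**Figure D5:**
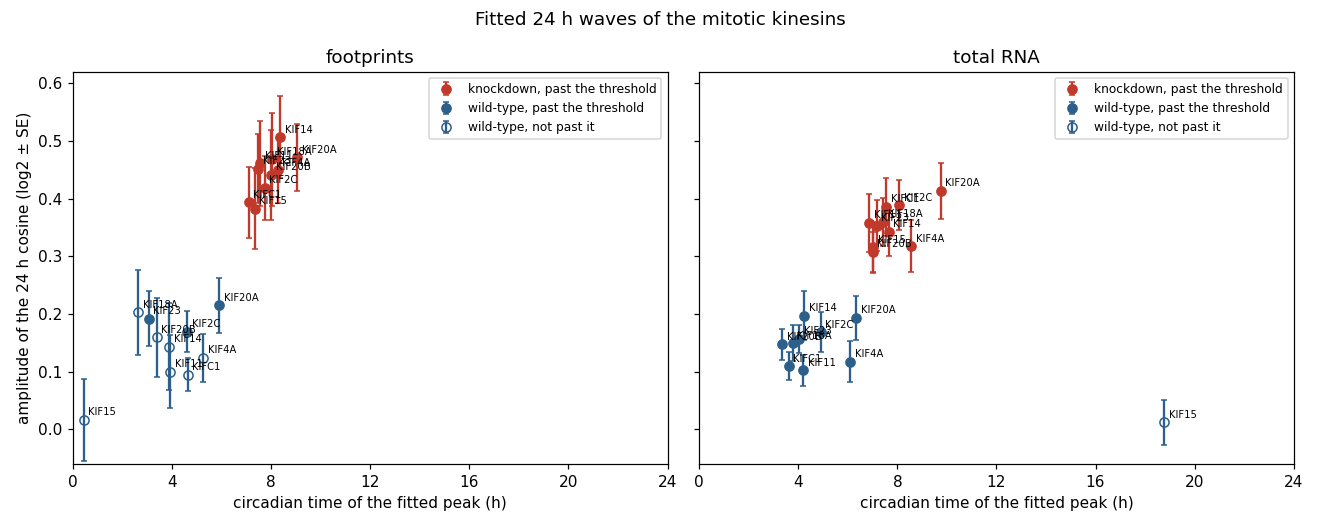
The amplitude of the 24 h wave on the log2 scale is plotted against its peak time in h for each mitotic kinesin, in knockdown and wild-type cells and in both assays, with bars of 1 SE and open points for waves not called. Knockdown amplitudes in total RNA span 0.31 to 0.41, and wild-type ones, KIF15 aside, span 0.10 to 0.20.

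Translational efficiency, taken as footprints over total RNA in CPM, did not pass the test in any of the 10 kinesins, though both layers did. The ratio averaged 2.08 ± 0.17 for KIFC1 in knockdown cells and 2.01 ± 0.11 in wild-type cells, and 1.63 ± 0.12 for KIF20A in knockdown cells and 1.81 ± 0.12 in wild-type cells (SD, 24 pairs of libraries each, matched by time and replicate number). It averaged 0.754 ± 0.117 for KIF14 in knockdown cells and 0.756 ± 0.109 in wild-type cells. The ratio does not allow a comparison between genes, since it was not corrected for coding length. In the interaction of knockdown with assay, 0 of 10 members were called by limma and 0 by edgeR, where 29.5% of genes were called, and by either tool 2 had an unadjusted p under 0.05. Those 2, singled out after their values were seen, were KIF4A, higher by 0.13 on the log2 scale (95% interval 0.01 to 0.25, limma adjusted p = 0.0914), and KIF20A, at -0.15 (95% interval -0.29 to -0.02, limma adjusted p = 0.0938). The 95% intervals differ in width between members: that of KIF2C runs from -0.11 to 0.08, that of KIFC1 from -0.03 to 0.12 and that of KIF14 from -0.19 to 0.18. Under the authors' scaling of the reads, which moves the median of all genes to 0.09, KIF4A, KIF20B and KIFC1 were called higher. A 24 h wave of efficiency was called for 0 of 10 members in knockdown cells, where 0.00861% of genes were called, and for 0 of 10 in wild-type cells, where 0.0594% were called, and by limma and by edgeR none had an unadjusted p under 0.05.

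The rest of the kinesin superfamily went both ways. Of 23 tested kinesins outside mitosis, 13 were higher and 8 lower in knockdown total RNA, where 41.2% of all genes were higher and 39.3% lower, and the median was 0.11, with KIF1A, a neuronal cargo motor, at 2.02 ± 0.06 and KIF24, a centriole motor, at -0.73 ± 0.03 (log2, SE). The 4 tested mitotic kinesins not among the 10, KIF22, CENPE, KIF18B and KIF2A, were all lower, at -0.93, -0.80, -0.74 and -0.24. In knockdown total RNA the wave was called for all 4 of these and for 6 of 22 other kinesins, where 31.5% of all genes were called. The difference between these groups was not tested.

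Most partners of the mitotic kinesins were lower as well, to be read beside the 39.3% of all genes that were lower, the 41.2% that were higher and the 31.5% with a knockdown wave in total RNA. Of 20 spindle and midzone genes, 20 were lower in knockdown total RNA, with a median of -0.67, among them ASPM (-1.12), which focuses spindle poles, CEP55 (-1.10), which recruits the abscission machinery to the midbody, NUSAP1 (-1.09), a microtubule-bundling protein, and CIT (-1.05), the citron kinase bound by KIF14. The knockdown wave was called for 20 of 20 of them in total RNA, with a median amplitude of 0.34. Of 16 S phase genes, 15 were lower, with a median of -0.82, including CCNE2 at -1.50 and the helicase subunit MCM6 at -1.43, and the wave was called for 15. Of 18 regulators of mitotic transcription and the cell cycle, 12 were lower and 4 higher: E2F1 was at -1.16, MYBL2, which binds the MuvB core, at -0.86 and the pocket protein RBL1 at -0.83, while the cyclin-dependent kinase inhibitor CDKN1A (p21) was at 1.81. The knockdown wave was called for 11 of these 18 regulators in total RNA, with a median amplitude of 0.13. FOXM1, a transcription factor of G2 and mitotic genes, was picked out after its values were seen. It was at -0.49, and its 24 h wave in knockdown total RNA did not pass the test (limma adjusted p = 0.429).

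The genes whose total RNA profile was most like that of the members were taken by root mean square distance, in log2 units. The distance was from the members' centred mean over 24 group means. Each gene was centred on its mean over both treatments, so the distance takes in the average knockdown difference as well as the course over time. RACGAP1, the centralspindlin partner of KIF23, was nearest of the 14033 genes at 0.04, followed by BUB1 and PRC1 at 0.04, and by PBK, IQGAP3 and BUB1B at 0.06, where the median over all genes was 0.48. Among the members themselves, which define the mean, KIF18A lay closest at 0.04 and KIF2C farthest at 0.18. KIF2C ranked 291, KIF15 198 and KIF20A 184 of the 14033 genes, so many genes outside the members lay nearer than these did. RACGAP1 had 83.7, 130.0 and 165 CPM (lowest, median, highest) in knockdown cells and 191, 221 and 273 CPM in wild-type cells.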

How the data were processed

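Total RNA and ribosome footprints were measured in 96 libraries, grouped by the labels into 48 groups of 2 replicates. Per the submitters' processing notes, STAR 2.3.0e, HTSeq 0.5.4p1, DESeq2 (version not given) and GRCh37 (hg19) were used. The deposited signal holds counts per gene after the authors' normalisation, which divided each library by its own factor. In every library 100% of the values were whole multiples of 1 step within 0.001 read, and whole reads were recovered from them. Whether counting used strand is not given in the sources used here, so genes that overlap an antisense gene are uncertain. Column names give the time alone, so treatment, assay and replicate came from the table each column sits in.

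Recovered reads of each assay were scaled by TMM (edgeR 4.0.16), and filterByExpr, set to a minimum count of 10, removed weakly covered genes. Because the deposited values are normalised, the test was limma-trend with robust empirical Bayes (limma 3.58.1, R 4.3.3) on log2(CPM + 0.25), fitted on all genes kept with Benjamini-Hochberg adjustment at 0.05, and folds of weakly expressed genes are understated by the pseudocount. The edgeR quasi-likelihood test on recovered reads was an alternative. The knockdown effect averages knockdown minus wild-type over 12 times, efficiency is the difference of that contrast between footprints and total RNA, and waves are F tests of a cosine and sine of 24 h. Of the 11 comparisons, the knockdown effects in total RNA, footprints and efficiency were tested on simulated data. So were the waves of knockdown total RNA, wild-type footprints and knockdown efficiency, and the wave difference in total RNA. The other comparisons were not. Simulated libraries were drawn independently, so these runs cannot show how replicate series correlated across times affect the calls. Intervals are 95% and cover the spread between these samples. Named genes were all 10 members and up to 4 genes of each other list with the largest total RNA effect. The marker lists are given whole, and the 6 nearest genes by total RNA profile were added. The members and lists were chosen with earlier results of these data known.

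Same-numbered replicates were paired across times in wild-type total RNA, where 66 pairs had deviations correlated at 0.307 to 0.53. The other comparisons fell short of every pair over 0.1, though wild-type footprints had 61 of 66 pairs over it (median 0.212) and wild-type efficiency 269 of 276 (median 0.281). The knockdown effect and wave difference in total RNA had 83 of 276 pairs over 0.1, but they hold the same paired wild-type libraries. No main fit had a term for the replicate, so SEs and p-values treat the libraries as independent. Alternatives were median-ratio and deposited scaling, no filter, a pseudocount of 1, edgeR, a replicate block, leaving out each replicate series or the 2 shallow libraries, series means, any shape over time, and an added drift.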

Additional observations from a re-analysis of the deposited data

Results flagged for a closer look

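The 24 h waves of the mitotic kinesins differed between knockdown and wild-type cells when the difference itself was tested, which is why these results are listed. In total RNA the limma adjusted p of the wave difference was 0.00297 for KIF11, 0.00903 for KIF14, 0.00136 for KIF15, 0.000826 for KIF18A and 0.00136 for KIF20A. It was 0.000904 for KIF20B, 0.00145 for KIF23, 0.00142 for KIF2C, 0.0193 for KIF4A and 0.000306 for KIFC1. In footprints the limma adjusted p was 0.0306 for KIF11, 0.0216 for KIF14, 0.0262 for KIF18A, 0.0133 for KIF20A and 0.047 for KIF20B. It was 0.00544 for KIF23, 0.00648 for KIF2C, 0.0043 for KIF4A and 0.00648 for KIFC1. The sizes in total RNA were 0.23 to 0.34 on the log2 scale, and the knockdown amplitude was the larger in all 10 genes. Without wild-type replicate 1, 1 of 10 differences was called in total RNA and 0 of 9 of the listed ones in footprints.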

How the results depend on the processing

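The knockdown effect on the 10 kinesins was called lower for all 10, in total RNA and in footprints, under every alternative run, and no result reversed. The members' median effect in footprints was -0.62 without wild-type replicate 1 and -0.96 without wild-type replicate 2, and in total RNA -0.73 and -0.84. For efficiency, the deposited scaling called 3 members, and leaving out a replicate series called 0 to 3. All-gene efficiency calls, 3530, were 1991 to 3624 with a series left out and 186 on series means. For the knockdown total RNA wave, all-gene calls were 4329, with 1126 to 1936 on 1 series, 2402 for any shape over time and 575 with a drift added. For knockdown footprints they were 1947, with 443 to 787 on 1 series and 259 with drift, and members called were 5 to 9 on 1 series. In wild-type total RNA they were 2882, with 4909 under the replicate block, 1591 to 2724 on 1 series, 729 for any shape and 24 with drift, and members called were 9 of 10 under the block and 0 for any shape and with drift. KIF4A lost its call in wild-type total RNA with no filter, as did KIF23 in wild-type footprints.

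In wild-type footprints all-gene calls were 759, with 1357 under the replicate block, 132 to 465 on 1 series, 142 for any shape and 7 with drift, and members called were 6 under the block and 0 for any shape and with drift. The wave difference was called in 1405 genes of total RNA, with 641 to 1029 when a series was left out, 408 for any shape and 151 with drift, and in 1 to 10 members when a series was left out. In footprints it was called in 417 genes, with 42 to 385 when a series was left out, 122 for any shape and 68 with drift, and in 0 to 9 members with a series left out and 4 members for any shape. The efficiency wave in knockdown cells was called in 1 gene, with 3 by edgeR, 3 without the shallow libraries, 0 on 1 series and 0 for any shape. In wild-type cells it was called in 7 genes, with 13 under the deposited scaling, 3 with no filter, 13 at a pseudocount of 1, 11 by edgeR, 18 under the replicate block, 0 to 20 on 1 series, 0 for any shape and 0 with drift. Fits on 1 series have 12 libraries in place of 24, and the other causes were not tested.

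The deposited scaling moved the all-gene median of the footprint effect to 0.09 and the share of calls that were higher to 60.9%, against 49.2%, and of efficiency to 79.8%, against 41.9%, with 49.9% under median-ratio scaling. The wave difference of KIF20B in footprints was not called under the deposited scaling or by edgeR. The replicate block also called the wave difference of KIF15 in footprints and the wild-type footprint waves of KIF4A, KIF18A and KIFC1, and it changed no other member call.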
